A study of Mus musculus with 24 samples.

Results

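The marginal zone of the spleen holds B cells that answer blood-borne antigens quickly, and a set of transcripts that follicular B cells carry less of accompanies that position. The account below follows 10 genes of this kind that are seldom used as markers: Ffar2, Myof, Nebl, Tsga13, Oosp1, Plbd1, Ube2e2, Ptgr1, Pxdc1 and Nbdy. They were taken as all probe sets annotated to exactly 1 of these genes, which gave 14 probe sets of 10 genes out of 45037 probe sets and 18193 genes. The genes were picked on their values in C57BL/6/J (B6) mice, as standing high in the marginal zone lineage on these same arrays, so the B6 values are given as a description, and tests are between groups of NOD/ShiLtJ (NOD) mice. Ffar2 and Myof have 2 probe sets each and Nebl has 3, and a gene is represented by the probe set that varied most over the 24 arrays.

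RNA was measured in splenic B cells of NOD mice, a strain that develops autoimmune diabetes spontaneously, and of B6 mice, which do not. All mice were female and 7 weeks old, and the spleens of 8 mice of a strain were pooled for each of 2 experiments, so 4 pools underlie the 24 arrays. Cells bearing CD3 or CD11b were removed, and surface CD23, CD93, B220, CD24, IgM and the complement receptors CD21 and CD35 guided the sort into subsets labelled T1, T2FO, T3, FO, T2MZ and MZ, with 2 arrays for each strain and label. FO and MZ name the mature follicular and marginal zone cells, T2FO and T2MZ their transitional precursors, and T1 and T3 other transitional cells. Values are RMA log values taken as log2, and each probe set was deposited centred on its median over all arrays, so that 0 is that median and differences between arrays are measured while expression levels are not. Since sorted populations were measured in bulk, fewer cells of a type and less RNA per cell cannot be told apart.

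In NOD the label T1 went against the transcripts of some sort markers. Cr2, which encodes CD21 and CD35 and is high on marginal zone cells, had a centred log2 value of 1.20 ± 0.06 in NOD arrays labelled T1, its highest NOD group, against -1.72 ± 0.15 in B6 T1 (SD, n = 2 each). The immature B cell marker Cd93 stood at -2.09 ± 0.07 in NOD arrays labelled T1, against 3.06 ± 0.11 in B6 T1 (SD, n = 2 each). Fcer2a, which encodes CD23, stood at -1.56 ± 0.11 in NOD arrays labelled T1. It was low in both B6 T1 (-1.23 ± 0.09) and B6 MZ (-1.53 ± 0.45), so it does not tell these apart. Other labels differed between the strains as well. Fcer2a stood at 0.97 ± 0.07 in NOD arrays labelled MZ, and Cd93 at 0.21 ± 0.43 in those labelled T2FO, against 2.75 ± 0.03 in B6 T2FO. Cr2 was alike in NOD arrays labelled FO (-0.06 ± 0.14) and in B6 FO (0.05 ± 0.09; SD, n = 2 each). Ighm, which encodes the IgM heavy chain, had -2.05 and 2.91 on the NOD arrays labelled T1, too far apart to place the group. NOD groups are called by their label throughout, and no label was changed. Macrophage transcripts were uneven. The mean of 12 monocyte and macrophage genes was 2.42 and 2.51 in the NOD arrays labelled FO, between -0.24 and 0.02 in those labelled T1, and between -0.29 and 2.02 in the 2 B6 MZ arrays.

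Among the 10 genes, Ffar2 encodes a cell surface receptor for short-chain fatty acids. Myof (myoferlin) belongs to the ferlins, which act in membrane fusion and repair, and Nebl (nebulette) is an actin-binding relative of nebulin best known from the heart. Plbd1 encodes a phospholipase B-like protein, Ptgr1 a reductase that inactivates leukotriene B4 and prostaglandin products, and Pxdc1 a protein with a PX domain, a fold that binds phosphoinositides. Ube2e2 is a ubiquitin-conjugating enzyme and Nbdy a microprotein that binds the mRNA decapping machinery of P-bodies. Tsga13 and Oosp1 are named for testis and oocyte. Marginal zone fate is known to depend on Notch2, whose signal is read at DNA by RBPJ. Promoters are shown for 3 genes whose values moved together in NOD and for Pxdc1, whose values did not follow them. They span 300 bases each, across an annotated start, from RefSeq on GRCm38.p6, written 5′ to 3′ on the strand of the gene. Capitals mark matches to TGGGAA (the RBPJ core), CAGGTG (an E protein box) or GAGGAA (a PU.1 core) on either strand.
Ffar2, chr7:30823726-30824025, minus strand: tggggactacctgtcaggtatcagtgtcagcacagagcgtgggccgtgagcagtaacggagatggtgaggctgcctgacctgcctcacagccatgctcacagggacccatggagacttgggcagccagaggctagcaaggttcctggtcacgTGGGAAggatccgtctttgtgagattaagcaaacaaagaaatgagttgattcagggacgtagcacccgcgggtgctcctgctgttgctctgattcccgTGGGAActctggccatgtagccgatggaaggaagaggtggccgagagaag
Tsga13, chr6:30915524-30915823, minus strand: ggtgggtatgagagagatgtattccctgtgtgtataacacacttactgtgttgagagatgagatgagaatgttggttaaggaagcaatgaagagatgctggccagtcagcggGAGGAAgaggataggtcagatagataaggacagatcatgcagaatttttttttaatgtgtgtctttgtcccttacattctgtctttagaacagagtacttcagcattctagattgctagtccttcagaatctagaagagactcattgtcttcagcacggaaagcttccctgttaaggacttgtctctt
Ube2e2, chr14:18893722-18894021, minus strand: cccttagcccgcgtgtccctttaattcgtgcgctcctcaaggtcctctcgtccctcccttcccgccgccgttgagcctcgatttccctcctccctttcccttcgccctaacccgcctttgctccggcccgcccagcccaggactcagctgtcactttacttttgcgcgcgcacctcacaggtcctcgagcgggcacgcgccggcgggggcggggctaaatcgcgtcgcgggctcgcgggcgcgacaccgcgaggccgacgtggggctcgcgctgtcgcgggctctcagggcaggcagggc
Pxdc1, chr13:34652632-34652931, minus strand: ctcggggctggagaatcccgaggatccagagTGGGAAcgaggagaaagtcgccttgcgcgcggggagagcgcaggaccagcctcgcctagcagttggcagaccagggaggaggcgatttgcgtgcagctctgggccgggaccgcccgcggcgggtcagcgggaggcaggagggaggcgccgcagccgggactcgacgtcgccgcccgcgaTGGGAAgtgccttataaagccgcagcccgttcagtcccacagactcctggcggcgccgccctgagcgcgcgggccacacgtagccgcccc

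All 10 genes matched, with 17 promoters between them. TGGGAA was found in a promoter of 4 of the 10 genes (Ffar2, Nebl, Plbd1 and Pxdc1) and in 28.3% of all 27025 genes with a promoter. CAGGTG was found in 4 (Nebl, Oosp1, Plbd1 and Nbdy), against 22.6% of all genes, and GAGGAA in 4 (Ffar2, Nebl, Tsga13 and Oosp1), against 31.3% of all genes. Ffar2 and Nebl have 4 promoters each in the table, which gives them more chances of a match. The Ube2e2 promoter shown holds none of the 3 motifs, and the Ffar2 and Pxdc1 promoters shown each hold TGGGAA 2 times. A match is a string of letters, not a site of binding.

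In B6, on whose values the genes were picked, the marginal zone lineage stood above the follicular lineage for all but 1 gene. The difference of T2MZ and MZ minus T2FO and FO, on the log2 scale, was 3.68 for Ffar2, 3.61 for Nebl, 3.08 for Tsga13, 2.61 for Oosp1 and 2.49 for Myof. It was 2.17 for Plbd1, 1.94 for Ube2e2, 1.60 for Ptgr1 and 1.19 for Nbdy. For Pxdc1 it was -0.06, so the label of marginal zone enrichment was not borne out for it over both steps. Pxdc1 was 0.70 higher in B6 T2MZ than in B6 T2FO but its B6 MZ minus B6 FO difference was -0.82. B6 MZ was the highest B6 group for 7 genes, B6 T2MZ for Pxdc1 and Nbdy, and B6 T1 for Ptgr1. In 6 of the 10 genes all 4 B6 T2MZ and MZ arrays lay above the other 8 B6 arrays. The share of all probe sets was not computed, and these values picked the genes, so the count is a description.

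**Figure D1:**
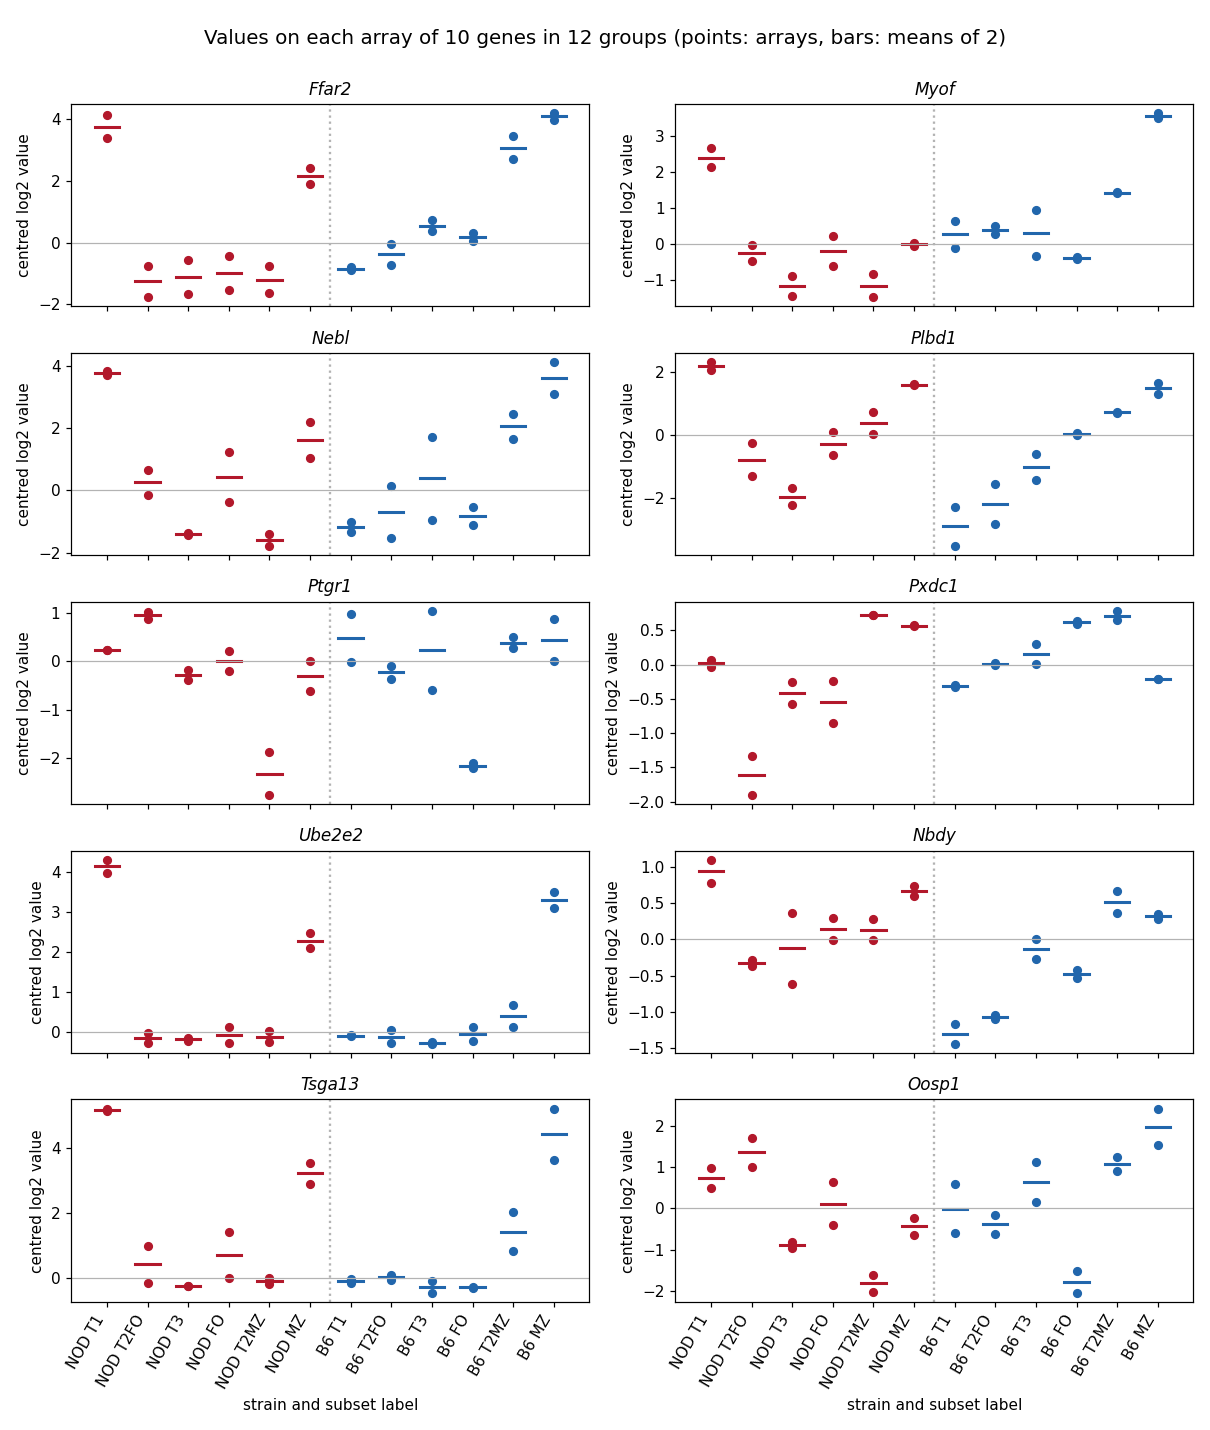
Centred log2 value of each of the 10 genes (vertical axes) on every array, with the 6 NOD labels in red left of the 6 B6 groups in blue. Points are arrays and bars are means of 2. By group mean among the NOD groups only, Ffar2, Myof, Nebl, Plbd1, Ube2e2, Nbdy and Tsga13 are highest in labelled T1 and next in labelled MZ. Among the same groups Oosp1 and Ptgr1 are highest in labelled T2FO and Pxdc1 in labelled T2MZ.

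The first question was whether genes picked in B6 also divide the NOD subsets. They did for 9 of 10: limma's moderated F-test over the 6 NOD groups gave adjusted p under 0.05 for all but Nbdy, at 12 of the 14 probe sets, where 1.77% of all probe sets were called. Adjusted p ran from 3.56e-07 for Ube2e2 to 0.0129 for Ptgr1, and was 0.0578 for Nbdy. This test does not depend on which label a NOD group carries. Myof was the gene whose probe sets disagreed: 1427318_s_at differed among NOD groups (adjusted p 0.000829) and 1452455_at did not pass (adjusted p 0.999998).

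The NOD group in which the genes stood highest was the one labelled T1, not the one labelled MZ. It was the top NOD group for 7 genes, and for 7 genes both its arrays lay above all 10 other NOD arrays, which held for 5.35% of all probe sets. Against the other 5 NOD groups, 7 genes rose and none fell by limma, at 10 of 14 probe sets. Of all probe sets 1.47% were called higher, 0.695% lower and 2.16% in either direction. The median difference of the 10 genes was 2.68 on the log2 scale, beside -0.02 over all probe sets. This comparison was chosen with the high marginal zone transcripts of these arrays already known.

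Ffar2, the fatty acid receptor, had centred log2 values of 3.38 and 4.11 in NOD arrays labelled T1 and 1.90 and 2.41 where the label was MZ. The 8 NOD arrays of the labels T2FO, T3, FO and T2MZ ran from -1.76 over a median of -1.14 to -0.43, so the T1, MZ and remaining groups did not overlap. The difference of T1 from the other 5 groups was 4.22 ± 0.37 (SE; adjusted p 1.33e-05), and the second probe set gave 3.52 ± 0.22. In B6 the highest values were 4.19 and 3.98 in MZ and 3.44 and 2.70 in T2MZ.

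Tsga13 showed the largest T1 difference of the 10 genes. Its values were 5.22 and 5.15 in NOD arrays labelled T1 and 2.90 and 3.56 in the labelled MZ arrays, with the other 8 arrays running from -0.27 over a median of -0.08 to 1.41. The difference of T1 from the other 5 groups was 4.39 ± 0.41 (SE; adjusted p 2.59e-05). B6 MZ arrays stood at 5.23 and 3.64, and B6 T2MZ arrays at 0.82 and 2.04.

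Ube2e2, the ubiquitin-conjugating enzyme, had the smallest adjusted p of the 10 genes. Values were 4.31 and 3.97 in NOD arrays labelled T1 and 2.10 and 2.48 in the labelled MZ arrays. All 8 other NOD arrays lay between -0.28 and 0.13, so Ube2e2 separated these 2 groups from a flat remainder. The difference of T1 from the other 5 groups was 3.79 ± 0.18 (SE; adjusted p 2.84e-08). In B6 it stood at 3.11 and 3.51 in MZ and at only 0.12 and 0.68 in T2MZ.

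Nebl, the actin-binding protein, had values of 3.85 and 3.71 in NOD arrays labelled T1 and 1.04 and 2.21 in the labelled MZ arrays. The 8 remaining NOD arrays spread widely, from -1.78 over a median of -0.87 to 1.24, and reached into the MZ range. The T1 difference was 3.91 ± 0.59 (SE; adjusted p 0.00185), and was called at all 3 probe sets, the smallest being 1.00 ± 0.14 at 1451846_at. Without T1 replicate 1 its adjusted p was 0.0684.

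Myof, the ferlin, stood high in the labelled T1 group, while its labelled MZ arrays lay among the rest. Its values were 2.66 and 2.13 in NOD arrays labelled T1, -0.05 and 0.03 in the labelled MZ arrays, and between -1.48 and 0.22 in the other 8. The T1 difference was 2.95 ± 0.30 (SE; adjusted p 6.17e-05). The second Myof probe set was flat in NOD, with a difference of 0.0004 ± 0.11.

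Plbd1, the phospholipase B-like gene, had values of 2.06 and 2.31 in NOD arrays labelled T1 and 1.59 and 1.59 in the labelled MZ arrays. The other 8 NOD arrays ran from -2.24 over a median of -0.46 to 0.71. The T1 difference was 2.40 ± 0.37 (SE; adjusted p 0.00208), and without T1 replicate 2 its adjusted p was 0.0701. On the NOD arrays labelled FO, where macrophage transcripts were highest, Plbd1 stood at -0.65 and 0.08, and the part of macrophage transcripts in its values was not tested.

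Nbdy, the decapping microprotein, was the smallest of the 7 rises. It stood at 0.78 and 1.10 in NOD arrays labelled T1, and at -0.61 to 0.74 in the other 10. The difference of 0.84 ± 0.19 (SE) had an adjusted p of 0.0324, which lay between 0.0513 and 0.514 without either labelled T1 array, or without replicate 1 of the labelled T2FO, FO, T2MZ or MZ group. It was 0.0677 when only the 12 NOD arrays entered the fit. Oosp1 (1.07 ± 0.36, adjusted p 0.206), Ptgr1 (0.63 ± 0.36, adjusted p 0.728) and Pxdc1 (0.28 ± 0.15, adjusted p 0.712) did not pass.

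**Figure D2:**
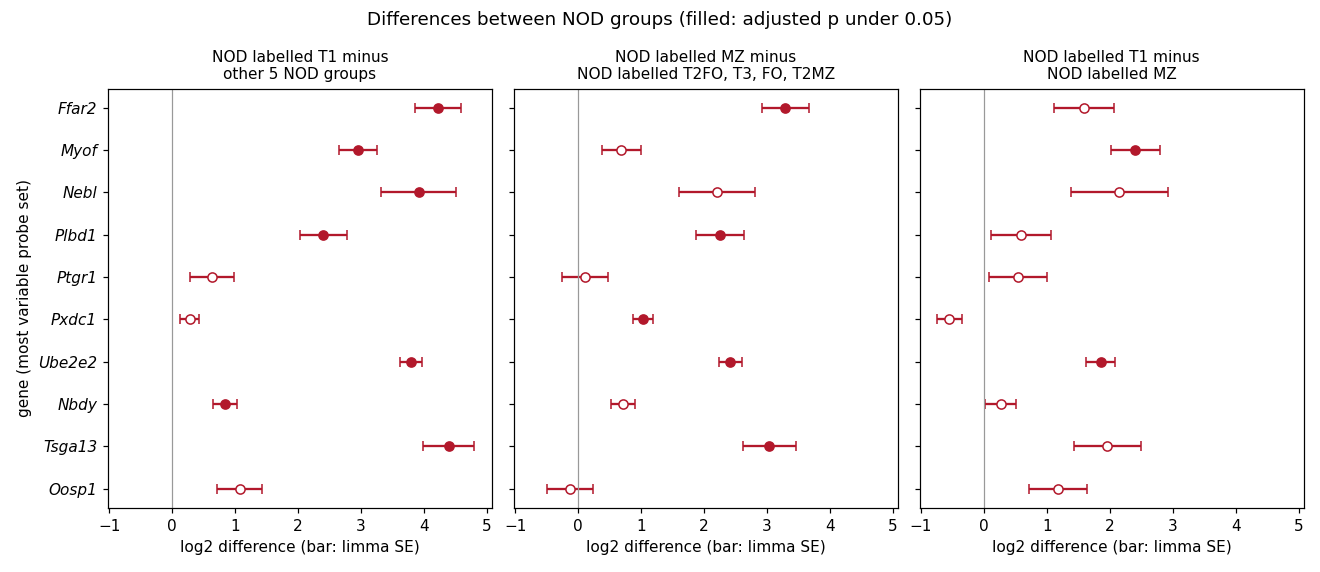
Log2 differences between NOD groups for the 10 genes (rows), with bars for the limma standard error and filled points for adjusted p under 0.05. In the left panel 7 points are filled and all lie above 0, in the middle panel 5 are filled, and in the right panel only Ube2e2 and Myof are filled.

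The NOD group labelled MZ came next for several of the genes. In 5 of the 10 both its arrays lay above the 8 NOD arrays of the labels T2FO, T3, FO and T2MZ, which held for 2.23% of all probe sets, and in 5 of the 10 the arrays labelled T1 and MZ all did, which held for 1.39%. Against NOD arrays labelled T2FO, T3, FO and T2MZ, 5 genes rose and none fell, where 0.158% of all probe sets were called, 0.0933% higher and 0.0644% lower. The rises were 3.29 ± 0.37 for Ffar2, 3.04 ± 0.42 for Tsga13, 2.42 ± 0.18 for Ube2e2, 2.26 ± 0.38 for Plbd1 and 1.03 ± 0.16 for Pxdc1 (SE; adjusted p from 5.22e-05 to 0.0233). Nebl (2.20 ± 0.61, adjusted p 0.368), Myof (0.69 ± 0.31, adjusted p 0.999975) and Nbdy (0.71 ± 0.19, adjusted p 0.361) did not pass, nor did Ptgr1 and Oosp1 at 0.11 and -0.13. Without MZ replicate 1 or without MZ replicate 2 a single gene, Ube2e2, was called. Plbd1 also missed the threshold without T2MZ replicate 1 (adjusted p 0.0558), and Nbdy passed it without T3 replicate 2 (adjusted p 0.0355).

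Set directly against each other, the NOD groups labelled T1 and MZ differed in 2 of the 10 genes, where 0.149% of all probe sets were called, 0.0933% higher and 0.0555% lower. Myof was higher in the labelled T1 group by 2.40 ± 0.39 (adjusted p 0.0206) and Ube2e2 by 1.85 ± 0.23 (adjusted p 0.00232). Ube2e2 lost its call without T1 replicate 1 (adjusted p 0.0758) or MZ replicate 1 (0.0681), and Myof lost it without any of the 4 arrays (adjusted p 0.0660 to 0.312). Of the rest, Tsga13 (1.96 ± 0.53), Nebl (2.15 ± 0.77), Ffar2 (1.59 ± 0.47) and Oosp1 (1.17 ± 0.46) were measured higher in the labelled T1 group and Pxdc1 lower (-0.55 ± 0.20), none of them past the threshold (adjusted p 0.402 to 0.999964).

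Read with the labels as given, the contrast of marginal zone against follicular lineage gave a mixed picture in NOD. NOD T2MZ and MZ minus NOD T2FO and FO called 4 of the 10 genes, 2 in each direction, where 0.528% of all probe sets were called, 0.222% higher and 0.306% lower. Pxdc1 rose by 1.73 ± 0.14 (adjusted p 9.78e-05) and Ube2e2 by 1.20 ± 0.16 (adjusted p 0.00319). Oosp1, with a difference of -1.86 ± 0.32 (adjusted p 0.0176), and Ptgr1, with -1.78 ± 0.32 (adjusted p 0.0220), fell. Ffar2 lay at the threshold: 1425216_at gave 1.59 ± 0.33 (adjusted p 0.0500107) and 1425215_at 1.23 ± 0.20 (adjusted p 0.00991). Plbd1 measured 1.51 ± 0.34 (adjusted p 0.0677).

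The falls of Oosp1 and Ptgr1 came with low values in the labelled T2MZ group and high values in the labelled T2FO group. Oosp1, the oocyte-named gene, had -1.61 and -2.03 in NOD arrays labelled T2MZ and -0.64 and -0.23 in those labelled MZ, against 1.01 and 1.71 in those labelled T2FO and -0.40 and 0.63 in those labelled FO. Ptgr1, the reductase gene, had -2.75 and -1.88 in NOD arrays labelled T2MZ and -0.62 and 0.01 in those labelled MZ. It had 0.87 and 1.01 in those labelled T2FO and -0.20 and 0.21 in those labelled FO. Both genes were not called without T2FO replicate 2, FO replicate 2 or either MZ array (adjusted p 0.0507 to 0.122), Ptgr1 also without T2MZ replicate 1 (0.103) and Oosp1 without T2MZ replicate 2 (0.102). Plasma cell transcripts were highest in T2FO replicate 2 of NOD, where the mean of 6 genes was 2.37. Their part in these values was not tested.

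Pxdc1, the PX domain gene, followed neither pattern. It had 0.72 and 0.72 in NOD arrays labelled T2MZ and 0.57 and 0.56 in those labelled MZ, against -1.33 and -1.90 in those labelled T2FO and -0.25 and -0.86 in those labelled FO. Arrays of the labelled T1 group, at 0.07 and -0.03, lay between them. In B6 its highest values were 0.78 and 0.65 in T2MZ and 0.63 and 0.59 in FO, and its lowest were in T1, at -0.32 and -0.30.

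**Figure D3:**
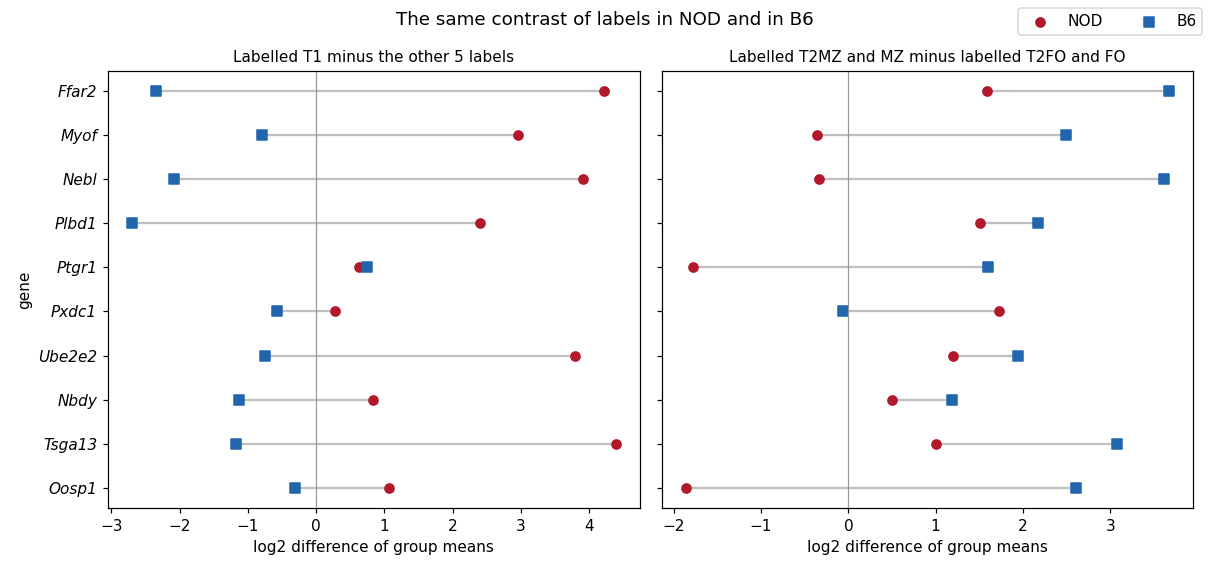
The same contrast of labels in NOD (circles) and B6 (squares) as log2 differences of group means, for labelled T1 minus the other 5 labels (left) and for T2MZ and MZ minus T2FO and FO (right). On the left the NOD value is above 0 and the B6 value below 0 for every gene except Ptgr1. On the right Oosp1, Ptgr1, Myof and Nebl are below 0 in NOD and above 0 in B6, of which Oosp1 and Ptgr1 passed the test in NOD.

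Averaged over the 6 labels, NOD was also set against B6. The B6 values that picked the genes enter this difference, so it is a description and no p-value is given. Myof averaged -0.07 in NOD and 0.92 in B6, a difference of -0.99 ± 0.09 (limma SE on 4 pool means). Its other probe set differed by -0.007. Pools were taken by replicate number, which low signal of the 5′ actin control probe set did not follow in B6. These standard errors may therefore not measure the spread between pools. Differences of the other 9 genes ran from -0.88 ± 0.31 for Ffar2 to 0.83 ± 0.29 for Plbd1. In the fit over all probe sets 3.02% were called, 1.64% higher and 1.38% lower, and 1 of the 10 genes, Myof, was among them. Nothing is read from that count, which was 0 without NOD replicate 1, without NOD replicate 2 or without the arrays labelled FO.

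Set beside B6 group by group, the NOD groups were most alike to B6 groups of other labels. The measure is the root mean square log2 difference over the 10 genes, a description computed after the values were seen. The B6 values that picked the genes enter every distance, so likeness is read only over genes chosen on the B6 marginal zone lineage. NOD labelled T1 lay closest to B6 MZ (0.73) and farthest from B6 T1 (3.57). NOD labelled MZ lay closest to B6 T2MZ (1.16), NOD labelled T2MZ to B6 FO (0.61), NOD labelled T3 to B6 T2FO (0.70), NOD labelled FO to B6 T3 (0.71), and NOD labelled T2FO to B6 T3 (0.91). For none of the 6 labels was the B6 group of the same label the closest. Some margins were small: NOD labelled T2FO lay 1.09 from B6 T2FO. The 2 B6 T3 arrays were far apart for Nebl, at -0.94 and 1.74. The centred 5′ actin control ran from -4.04 to 0.47 in B6 and from -0.54 to 0.79 in NOD. The part of this uneven 5′ signal in the distances was not tested.

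The differences of NOD labelled T1 from B6 MZ ran from -1.24 for Oosp1 and -1.17 for Myof to 0.72 for Plbd1, 0.75 for Tsga13 and 0.84 for Ube2e2, with a median of 0.19. NOD labelled T2MZ and B6 FO shared the lowest values of both Ptgr1 (-2.32 and -2.15) and Oosp1 (-1.82 and -1.78) in their strain.

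**Figure D4:**
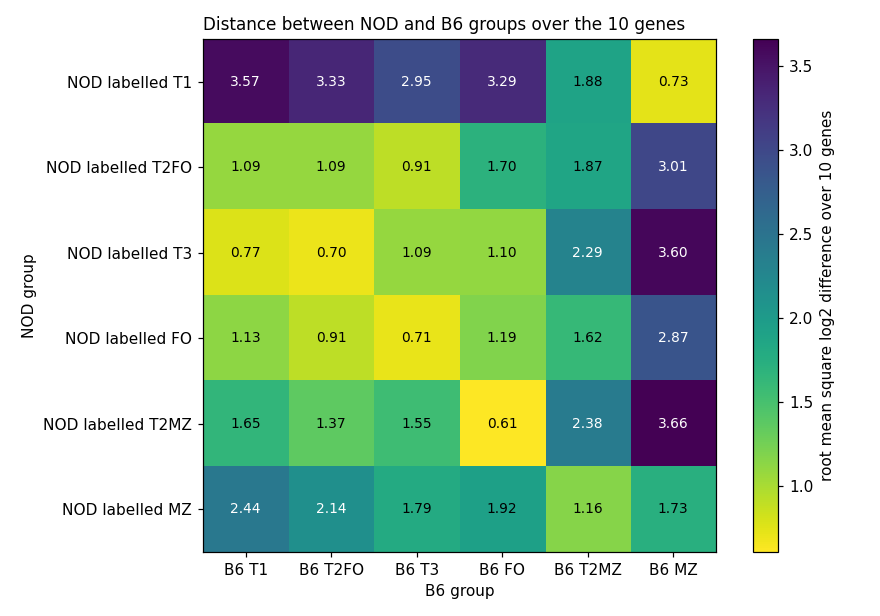
Root mean square log2 difference over the 10 genes between each NOD group (rows, by label) and each B6 group (columns). Light cells are alike: the smallest values are 0.61 for NOD labelled T2MZ with B6 FO, 0.70 for NOD labelled T3 with B6 T2FO, 0.71 for NOD labelled FO with B6 T3 and 0.73 for NOD labelled T1 with B6 MZ.

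The 10 genes did not form a single pattern across the 12 NOD arrays. Pearson's r over the 45 pairs of genes ran from -0.75 (Ptgr1 with Pxdc1) to 0.98 (Ffar2 with Tsga13), with a median of 0.62, and 18 pairs were over 0.8. These arrays share pools and groups, so the values are a description. Ffar2, Tsga13, Ube2e2, Nebl and Myof ran together, with r from 0.82 to 0.98. Plbd1 and Nbdy were near them, with r from 0.62 (Nbdy with Myof) to 0.89 (Nbdy with Ffar2). Oosp1 and Ptgr1 formed a pair (0.88), and Pxdc1 ran against both (-0.74 with Oosp1).

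Better known genes of the lineage were read in the same contrasts. Of 14 marginal zone genes, 9 rose and none fell in NOD labelled T1 against the other 5 NOD groups. Of all probe sets 1.47% were called higher. The median of the 14 was 1.70, beside -0.02 over all probe sets. The list and this comparison were chosen with earlier results of these data known, so the count is a description. The largest differences were those of Tlr3, the sensor of double-stranded RNA (4.70 ± 0.31), Asb2, a ubiquitin ligase subunit (4.22 ± 0.24), S1pr3, a sphingosine 1-phosphate receptor (3.78 ± 0.47), and Cd9, a tetraspanin (3.04 ± 0.50). The lipid-presenting molecule Cd1d1 (2.18 ± 0.21) and the Notch target Dtx1 (1.93 ± 0.28) were among them too. In NOD labelled MZ against the labels T2FO, T3, FO and T2MZ 4 rose (Cr2, Dtx1, Asb2 and Tlr3) and none fell. There 0.0933% of all probe sets were called higher. With T2MZ and MZ against T2FO and FO 1 rose (Cr2) and none fell, where 0.222% of all probe sets were called higher. Of 6 measured follicular genes, 3 fell and none rose in NOD labelled T1, where 0.695% of all probe sets were called lower. They were Fcer2a (-2.39 ± 0.40), the transcription factor Klf2 (-2.20 ± 0.51) and the chemokine receptor Ccr7 (-1.95 ± 0.46). None of the 6 rose or fell in NOD labelled MZ (median 0.09). Their mean was 0.34 and 0.58 on those 2 arrays, against -1.12 and -0.93 in B6 MZ. With T2MZ and MZ against T2FO and FO 1 rose (Cxcr5, 1.04 ± 0.21, adjusted p 0.0460) and none fell. Cr2 and Fcer2a encode sort markers.

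Markers of other cells were also read in the labelled T1 arrays. None of 12 macrophage, 5 neutrophil, 6 dendritic, 6 T cell, 3 NK cell and 7 erythroid and platelet genes had both NOD arrays labelled T1 above all other NOD arrays. That held for 5.35% of all probe sets. For macrophage genes it says little, since the NOD arrays labelled FO had list means of 2.42 and 2.51. In labelled T1, Spic (1.72) and Cd68 (1.02) stood next below labelled FO (2.63 and 2.12). Of the 12 macrophage genes, 2 had both labelled T1 arrays below all other NOD arrays, a share not computed over all probe sets. The immature B cell list of 8 genes had 4 that fell and none that rose in NOD labelled T1 against the other 5 NOD groups. The sort marker Cd93 is on that list. Of all probe sets 0.695% were called lower in that comparison.

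By the correlation over the 12 group means, the genes most alike to the mean of the 10 profiles were Zc3h12c (0.991), Cdh17 (0.977), Ptpn14 (0.973), Prom1 (0.970) and A930005H10Rik (0.967), followed by Pde4d, Flacc1, Ldlrad3, Acot1 and S1pr3 (0.964 to 0.949). Zc3h12c, of a family of RNA-binding nucleases, had mean log2 values of 2.73 in NOD labelled T1, 1.48 in NOD labelled MZ and 2.73 in B6 MZ. Single genes paired with the 10 as follows: Terb1 with Ffar2, Smad3 with Myof, Zc3h12c with Nebl, Tlr3 with both Tsga13 and Ube2e2, and Ikbke with Plbd1 (r 0.968 to 0.991). Tenm4 was most alike to Oosp1, Rilpl2 to Ptgr1, Spryd3 to Pxdc1 and Rpl35 to Nbdy (r 0.933 to 0.967).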

How the data were processed

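RNA from sorted splenic B cells was amplified in 2 cycles from the poly(A) tail and hybridised to Affymetrix Mouse Genome 430 2.0 arrays, per the labels' protocols. RMA is the tool named in the submitters' processing notes. Its version and the scale are not stated there, and the values the authors deposited were read as log2. The deposited table was found centred on each probe set's median over the 24 arrays (largest median 5e-07), so no filter on dim probe sets could be applied. Array medians lay between -0.04 and 0.06. Of 45101 probe sets, 64 were controls, 34945 had 1 gene, 932 several and 9160 none in the platform annotation.

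limma 3.58.1 in R 4.3.3 fitted 12 group means over 24 arrays and 45037 probe sets. NOD was set against B6 with limma over the means of the 4 pools. A call needed p under 0.05 after Benjamini-Hochberg adjustment. Errors beside differences are limma standard errors. The number of arrays, 2 per group, limits the precision, and arrays of a pool are not independent. Figures were drawn with matplotlib 3.10.9. Members, gene lists and contrasts were chosen with earlier results of these data known. All 10 genes are named, and genes most alike were taken by correlation over group means. Alternatives covered arrays in the fit, blocks on the pool, scaling, probe set choice, robust moderation, the 5′ signal and leaving out each array. Leaving out the NOD arrays labelled FO was chosen after seeing the data. The pool of an array was taken from its replicate number, which the labels do not state outright. A check of deviations, given with the alternatives, did not settle it. In B6 low 5′ actin signal did not follow the replicate number.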

Additional observations from a re-analysis of the deposited data

Results flagged for a closer look

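For 8 of the 10 genes the 2 NOD arrays labelled T1 each lay on the opposite side of the mean of the other 5 groups of their strain from the 2 B6 T1 arrays. The share of all probe sets that do so was not computed, and the B6 values that chose the genes enter the count, so it is a description. The log2 difference of labelled T1 from the other 5 labels was 4.2243 in NOD and -2.3448 in B6 for Ffar2, 2.9543 and -0.79071 for Myof, 3.9132 and -2.0846 for Nebl, and 4.3893 and -1.1686 for Tsga13. It was 2.3985 in NOD and -2.6961 in B6 for Plbd1, 3.7889 and -0.74652 for Ube2e2, 0.27732 and -0.56719 for Pxdc1, and 0.83731 and -1.1296 for Nbdy. For Oosp1 and Ptgr1 each of the 4 T2MZ and MZ arrays lay below the mean of T2FO and FO in NOD and above it in B6, although single NOD arrays of these labels overlapped. The difference was -1.8629 in NOD and 2.6086 in B6 for Oosp1, and -1.7849 in NOD and 1.6014 in B6 for Ptgr1. The difference between the strains was not tested for any of these, since the B6 values chose the genes, and the NOD label T1 goes against the Cr2 and Cd93 transcripts.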

How the results depend on the processing

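Counts of called genes stayed within 1.5 times for the 6 NOD groups (8 to 10 when each array was left out) and for labelled T1 against the other 5 (5 to 7) under every alternative run. Leaving out single arrays gave 2 to 4 for T2MZ and MZ against T2FO and FO, 1 to 6 for labelled MZ against the other 4 groups, 0 to 1 for labelled T1 against labelled MZ, and 0 to 1 for NOD against B6. For NOD against B6, 7 genes were called with 24 arrays as independent, 6 with a random pool effect and 7 with the 5′ covariate on the 24 arrays. It was 0 with the mean of a gene's probe sets and 0 without the arrays labelled FO, an alternative chosen after seeing the data. The cause was not tested. The B6 values that picked the genes enter every NOD against B6 count given here, so nothing is read from these counts. Directions turned only in values that were not called. Nebl for NOD against B6 was -0.05, and 0.045 with the mean of probe sets, 0.71 with the 5′ covariate, and -0.37 to 0.28 when each pool was left out. Ptgr1 there was -0.14, and -0.30 to 0.012 when each pool was left out. Nebl for T2MZ and MZ against T2FO and FO was -0.33, and -0.74 to 0.068 when each array was left out. For labelled MZ against the other 4 groups Oosp1 was -0.13, and 0.012 without the labelled FO group and -0.34 to 0.078 when each array was left out, and Ptgr1 was 0.11, and -0.21 to 0.43 when each array was left out. Same-numbered arrays of different NOD groups had correlated deviations of -0.04 to 0.51, over 0.1 in 12 of 15 pairs of groups. B6 ones had -0.62 to 0.87, so this check does not settle whether a number marks a pool in every group. The pool means assume that it does. In B6 the 5′ actin control was low on replicate 2 of T1 (-3.65), T2FO (-4.04), T3 (-3.27) and T2MZ (-3.88). In FO (-3.51) and MZ (-3.47) it was low on replicate 1. The other B6 arrays had -1.36 to 0.47. Low 5′ signal thus did not follow the replicate number in B6, and each B6 pool mean held both kinds of array. With a replicate block 0 genes were called for NOD against B6 and 6 for T2MZ and MZ against T2FO and FO (Ffar2 and Plbd1 added). That block gave 3 for labelled T1 against labelled MZ (Ffar2 added, adjusted p 0.0255), 10 for the 6 NOD groups, 7 for labelled T1 against the other 5 and 5 for labelled MZ. More of all 45037 probe sets were called with it too: 1143 against 797 in the main fit for the 6 NOD groups, and 1363 against 975 for labelled T1. Centred values give no signal over background, so dim probe sets could not be told from bright ones.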
